A study of Mus musculus with 41 samples.

Results

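The genes described here are 50 mouse genes that act in G2 and mitosis, taken as a fixed list of symbols and looked up in a count table of 48795 genes. All 50 were found, and all 50 passed the filter on low counts in both cohorts of the series. The first cohort (cohort 1) held 4 groups of 6 kidneys from male mice 8 to 10 weeks old. Control mice had no ischemia, and the labels do not say whether they had sham surgery. UIRI d3 mice had unilateral ischemia-reperfusion injury of the left kidney, with 21 minutes of ischemia at 34 °C core temperature, and were killed on day 3. UIRI d7 and UIRI+Nx d7 mice had the same injury and a second operation on day 3, a sham nephrectomy in UIRI d7 and removal of the contralateral kidney in UIRI+Nx d7, and were killed on day 7. The second cohort (cohort 2), titled WT, held 6 UIRI d3, 6 UIRI d7 and 4 UIRI+Nx d7 libraries and no Control group; its age, sex, ischemia time and sham surgery are not given, nor whether its libraries come from separate animals, so its p-values measure the spread between libraries. The question for these genes was how far the division program seen on day 3 persisted on day 7, with and without the nephrectomy.

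The proteins of these genes carry a cell from the end of DNA synthesis through division. Cyclin-dependent kinase 1 with cyclins A and B drives entry into mitosis, Polo-like and Aurora kinases build and supervise the spindle, the anaphase-promoting complex ends mitosis by protein destruction, and a contractile ring with a central spindle splits the cell. Most of the genes are held silent in resting cells by the DREAM complex and are switched on together late in the cycle by MMB-FOXM1. Both complexes bind a short promoter element called the cell cycle genes homology region, or CHR. Adult kidney tubule cells divide rarely, and many enter the cycle in the days after ischemia; some cells copy their DNA and raise these transcripts without completing division, so the transcripts mark a program and not a count of divisions.

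Libraries were made by 3′ end counting from a frozen pole section of whole kidney, and total counts ran from 5090418 to 33362940 per library. Levels are given in CPM, the count relative to the size of the library, with library sizes adjusted by TMM, a trimmed mean of log ratios between libraries; fragments come from transcript ends, so levels were not divided by gene length. Calls are an adjusted p under 0.05 in edgeR's quasi-likelihood F test with Benjamini-Hochberg adjustment over all genes tested, 15701 in cohort 1 and 15543 in cohort 2. All 10 kidney epithelium markers were detected in every group, with summed levels from 13792 to 17674 CPM in Control. In whole tissue, more dividing cells and more of these transcripts per cell cannot be told apart.

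The summed level of the 50 genes was lowest in Control and highest in UIRI d3. It ran from 345 to 428 CPM in the 6 Control libraries (median 391), from 1636 to 2158 in UIRI d3 (median 1946), from 590.4 to 859 in UIRI d7 (median 804) and from 497 to 856 in UIRI+Nx d7 (median 687). Every day 7 library of the first cohort therefore lay above all Control libraries and below all UIRI d3 libraries, and the day 7 groups overlapped over most of their range. In the second cohort the sum ran from 1497 to 1858 CPM in UIRI d3 (median 1564) and from 665 to 802 in UIRI d7 (median 703), and it was 981, 929, 1046 and 795 in the 4 UIRI+Nx d7 libraries. Here 3 of the 4 UIRI+Nx d7 libraries lay above every UIRI d7 library, and the fourth lay within their range.

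**Figure D1:**
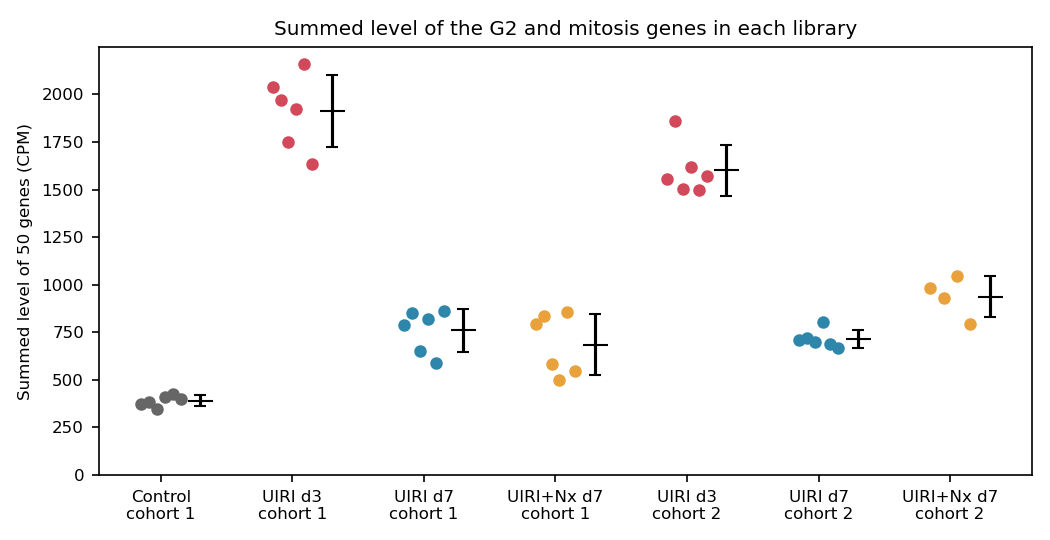
Summed level of the 50 genes in CPM on the vertical axis, with 1 point per library and the group mean and SD as a bar beside the points, for the 4 groups of cohort 1 and the 3 of cohort 2. Day 7 libraries of cohort 1 lie between Control (345 to 428 CPM) and UIRI d3 (1636 to 2158 CPM).

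The promoters of these genes are shown because most of them carry the element named above. Promoter windows from RefSeq on GRCm38.p6, each from 250 bases before to 50 after a start, were given for 42 of the 50 genes, in 44 windows, and were searched on both strands. The CHR was searched as TTTGAA or TTCGAA, the NF-Y box as CCAAT, and the E2F site as TTTGGCGC, TTTCCCGC, TTTCGCGC or TTTGCCGC; matches of different motifs could overlap. A CHR occurred in 79.55% of the windows of these genes, against 19.23% of all 32851 windows of the table and 21.43% of the windows of 46 S phase genes. Within 50 bases of the start it occurred in 70.45%, against 5.306% of all windows. An NF-Y box occurred at least 2 times in 50.0% of the windows, against 11.7% of all windows. An E2F site occurred in 9.091% of the windows of these genes and in 32.14% of those of the S phase genes, against 2.265% of all windows. A match is a description of letters and not of a bound site. Of the 42 genes, 9 had no CHR letters in their window: Birc5, Ccnb1, Cenpe, Melk, Mybl2, Ncaph, Nuf2, Nusap1 and Pttg1. Below are the 90 bases before and 30 bases after the start, 5′ to 3′ along the gene's strand, with CHR and NF-Y letters in capitals (TTCAAA and ATTGG are the same letters on the other strand). Cdk1, Ccnb2, Cdc20, Top2a and Kif11 represent genes with both motifs; Spc25 is shown because its order of groups was another in the second cohort, and Pttg1 and Birc5 for having neither motif in this stretch, of which Pttg1 was the 1 gene lower than Control. The RefSeq start of Pttg1 lies inside the gene as GENCODE draws it.
Cdk1, chr10:69352883-69353002, minus strand: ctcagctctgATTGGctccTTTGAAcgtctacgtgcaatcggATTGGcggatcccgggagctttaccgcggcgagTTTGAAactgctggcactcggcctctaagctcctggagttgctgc
Ccnb2, chr9:70421525-70421644, minus strand: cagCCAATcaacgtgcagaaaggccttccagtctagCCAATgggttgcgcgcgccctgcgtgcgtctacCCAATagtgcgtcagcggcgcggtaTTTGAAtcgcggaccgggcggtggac
Cdc20, chr4:118437314-118437433, minus strand: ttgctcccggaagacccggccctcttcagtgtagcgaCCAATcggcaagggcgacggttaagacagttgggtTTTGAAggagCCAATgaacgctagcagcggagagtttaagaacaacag
Top2a, chr11:99024160-99024279, minus strand: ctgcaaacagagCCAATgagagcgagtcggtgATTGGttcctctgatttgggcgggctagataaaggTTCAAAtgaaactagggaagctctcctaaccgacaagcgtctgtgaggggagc
Kif11, chr19:37376292-37376411, plus strand: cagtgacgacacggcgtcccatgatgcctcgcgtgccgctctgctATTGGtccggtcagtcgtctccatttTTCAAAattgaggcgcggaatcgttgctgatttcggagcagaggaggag
Spc25, chr2:69206184-69206303, minus strand: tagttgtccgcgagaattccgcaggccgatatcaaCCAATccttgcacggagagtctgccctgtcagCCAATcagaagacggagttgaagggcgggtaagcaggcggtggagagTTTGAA
Pttg1, chr11:43425952-43426071, minus strand: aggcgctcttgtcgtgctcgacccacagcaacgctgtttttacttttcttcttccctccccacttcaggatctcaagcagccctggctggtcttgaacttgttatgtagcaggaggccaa
Birc5, chr11:117849147-117849266, plus strand: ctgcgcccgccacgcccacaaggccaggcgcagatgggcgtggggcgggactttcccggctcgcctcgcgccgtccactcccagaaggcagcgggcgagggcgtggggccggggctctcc

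**Figure D2:**
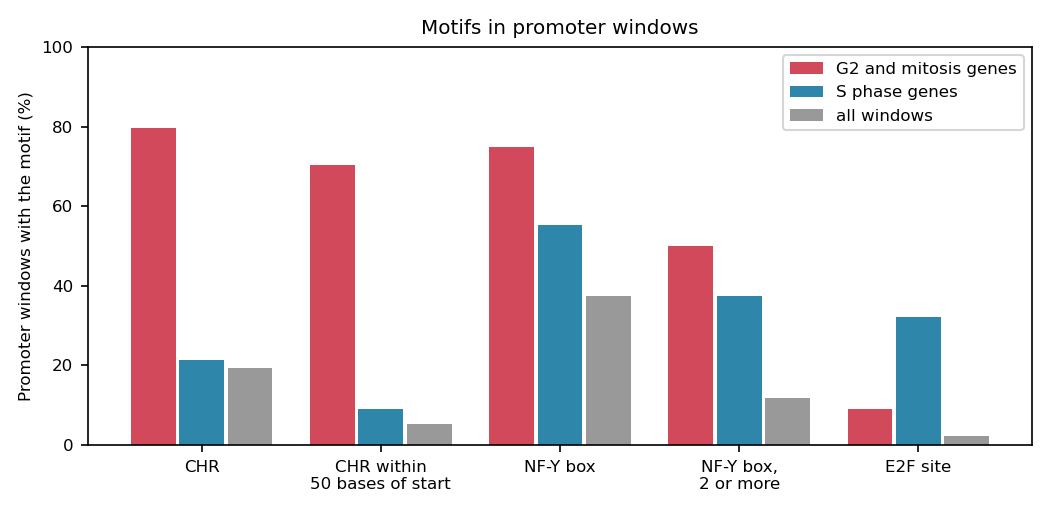
Share of promoter windows (vertical axis, percent) that hold each motif, for the 44 windows of the G2 and mitosis genes, the 56 windows of S phase genes and all 32851 windows. A CHR within 50 bases of the start occurs in 70.45% of the first set, 8.929% of the second and 5.306% of all windows.

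On day 3 after ischemia, 49 of the 50 genes were higher than in Control and 1, Pttg1, was lower, where 17.8% of all genes tested were called higher and 14.9% lower. The median log2 fold change of the 50 was 3.65, beside 0.0006 over all genes tested. The 3 largest rises among genes with at least 5 CPM in a group were those of Melk (log2 fold change 5.53, SE 0.54, adjusted p = 9.85e-09), Plk1 (log2 fold change 4.80, SE 0.35, adjusted p = 7.32e-11) and Ccnb1 (log2 fold change 4.53, SE 0.34, adjusted p = 8.81e-11). Melk encodes a kinase abundant in dividing cells, Plk1 the Polo-like kinase of mitotic entry, and Ccnb1 cyclin B1. The libraries fall into runs of the S numbers that end the column names, which the labels do not call batches. Within the runs 1a and 2b the median was 3.63 and 3.68. There 49 and 48 genes were called higher, with 4555 and 2475 genes called in the whole table.

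On day 7 most of the 50 genes were still above Control, with and without the nephrectomy. In UIRI d7, 45 were higher and 1 was lower, where 21.5% and 18.1% of all genes were called, and the median log2 fold change was 2.16 (0.041 over all genes). In UIRI+Nx d7, 44 were higher and 1 was lower, where 17.3% and 14% of all genes were called, and the median was 2.0 (0.023 over all genes). The largest rises left in UIRI d7 were those of Melk (log2 fold change 4.0, SE 0.54, adjusted p = 1.18e-06), Plk1 (log2 fold change 2.80, SE 0.33, adjusted p = 1.42e-07) and the spindle checkpoint kinase Ttk (log2 fold change 2.76, SE 0.36, adjusted p = 9.16e-07). In UIRI+Nx d7 they were those of Melk (log2 fold change 3.72, SE 0.54, adjusted p = 5.18e-06), Anln (log2 fold change 2.83, SE 0.47, adjusted p = 3.83e-05) and Cdk1 (log2 fold change 2.80, SE 0.47, adjusted p = 3.58e-05). These comparisons share the Control libraries. Within run 1a, with 3 libraries on each side, the median was 2.24 for UIRI d7 and 2.18 for UIRI+Nx d7. There 40 and 42 genes were called higher, with 3233 and 4235 genes called in the whole table. Within run 2b, with 2 on each side, the median was 1.99 for UIRI+Nx d7. There 9 genes were called, with 680 called in the whole table.

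The genes not called above Control on day 7 were few. Spc25, Smc4 and Ect2 were called in neither day 7 group, with log2 fold changes of -0.31 and -0.26 for Spc25, 0.21 and 0.23 for Smc4 and 0.80 and 0.92 for Ect2, in UIRI d7 and UIRI+Nx d7. Cdc25c was not called in UIRI d7 (1.45), and Mybl2 (0.72) and Kif18b (1.98) were not called in UIRI+Nx d7. These last 3 had group means of at most 3.76 CPM in the first cohort.

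Between day 3 and day 7 the genes fell in both cohorts. In the first cohort 38 were lower and 0 higher in UIRI d7 than in UIRI d3, where 1.36% of all genes were called lower and 1.24% higher, with a median log2 fold change of -1.50 (0.013 over all genes). No gene of the 50 was higher at an unadjusted p under 0.05 or by DESeq2. The largest falls were those of Ube2c (log2 fold change -2.02, SE 0.29, adjusted p = 2.13e-04), Plk1 (log2 fold change -2.0, SE 0.31, adjusted p = 3.75e-04) and Cdca3 (log2 fold change -1.96, SE 0.26, adjusted p = 7.01e-05). Within run 1a, with 3 libraries against 2, the median was -1.46 and no gene of the whole table was called. In UIRI+Nx d7, 40 were lower and 0 higher than in UIRI d3, where 3.06% and 2.06% of all genes were called, with a median of -1.57 (0.015 over all genes); again 0 were higher at an unadjusted p under 0.05 or by DESeq2. The largest falls were those of Plk1 (log2 fold change -2.26, SE 0.31, adjusted p = 5.22e-05), Ttk (log2 fold change -2.25, SE 0.34, adjusted p = 1.34e-04) and the condensin subunit Ncapg (log2 fold change -2.21, SE 0.35, adjusted p = 2.64e-04). Within runs 1a and 2b the median was -1.51 and -1.58. There 32 and 14 genes were called lower, with 1329 and 94 genes called in the whole table. Of the injured groups, run 2b held 3 UIRI d3 and 2 UIRI+Nx d7 libraries and no UIRI d7 library, so group and run partly coincided. With the run as a block in edgeR, 31 genes were lower in UIRI d7 and 41 in UIRI+Nx d7. The medians were then -1.42 and -1.64, with 390 and 1055 genes called in the whole table.

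The second cohort, which has no Control group, gave falls in both day 7 groups, with a smaller median fall in UIRI+Nx d7 than in UIRI d7. In UIRI d7, 46 genes were lower and 0 higher than in UIRI d3, where 4.05% and 4.51% of all genes were called, with a median log2 fold change of -1.41 (0 over all genes). Anln (log2 fold change -2.04, SE 0.30, adjusted p = 2.63e-04), Ube2c (log2 fold change -1.80, SE 0.12, adjusted p = 1.06e-07) and Nuf2 (log2 fold change -1.75, SE 0.28, adjusted p = 4.94e-04) fell most. In UIRI+Nx d7, 39 were lower and 0 higher than in UIRI d3, where 3.04% and 2.97% of all genes were called, with a median of -1.08 (0.0097 over all genes); the same 0 was found by DESeq2, and 1 gene, Pttg1, was higher at an unadjusted p under 0.05. Anln (log2 fold change -1.63, SE 0.34, adjusted p = 0.00627), Ect2 (log2 fold change -1.58, SE 0.23, adjusted p = 2.80e-04) and Ncapg (log2 fold change -1.56, SE 0.25, adjusted p = 6.88e-04) fell most. Within run 2a the medians were -1.30 with 34 genes called lower for UIRI d7 and -0.999 with 17 for UIRI+Nx d7. Each of these fits had 2 libraries against 6, and they called 313 and 339 genes in the whole table. All 6 UIRI d3 libraries were in run 2a. Run 2c held 4 UIRI d7 and 2 UIRI+Nx d7 libraries, so day and run partly coincided. With the run as a block in edgeR, 35 genes were lower in UIRI d7 and 32 in UIRI+Nx d7. The medians were then -1.26 and -1.09, with 349 and 869 genes called in the whole table.

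The change from UIRI d3 to UIRI d7 did not pass a test of the difference between cohorts for any of the 50 genes, nor did that from UIRI d3 to UIRI+Nx d7. In edgeR's fit of all 7 groups, 0% of 16606 genes were called higher and 0% lower in either contrast; by the unadjusted p, 1 of the 50 was under 0.05 in the first and 15 in the second, and the lowest adjusted p was 0.9998 and 0.361. All 15 had the more negative change in the first cohort.

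**Figure D3:**
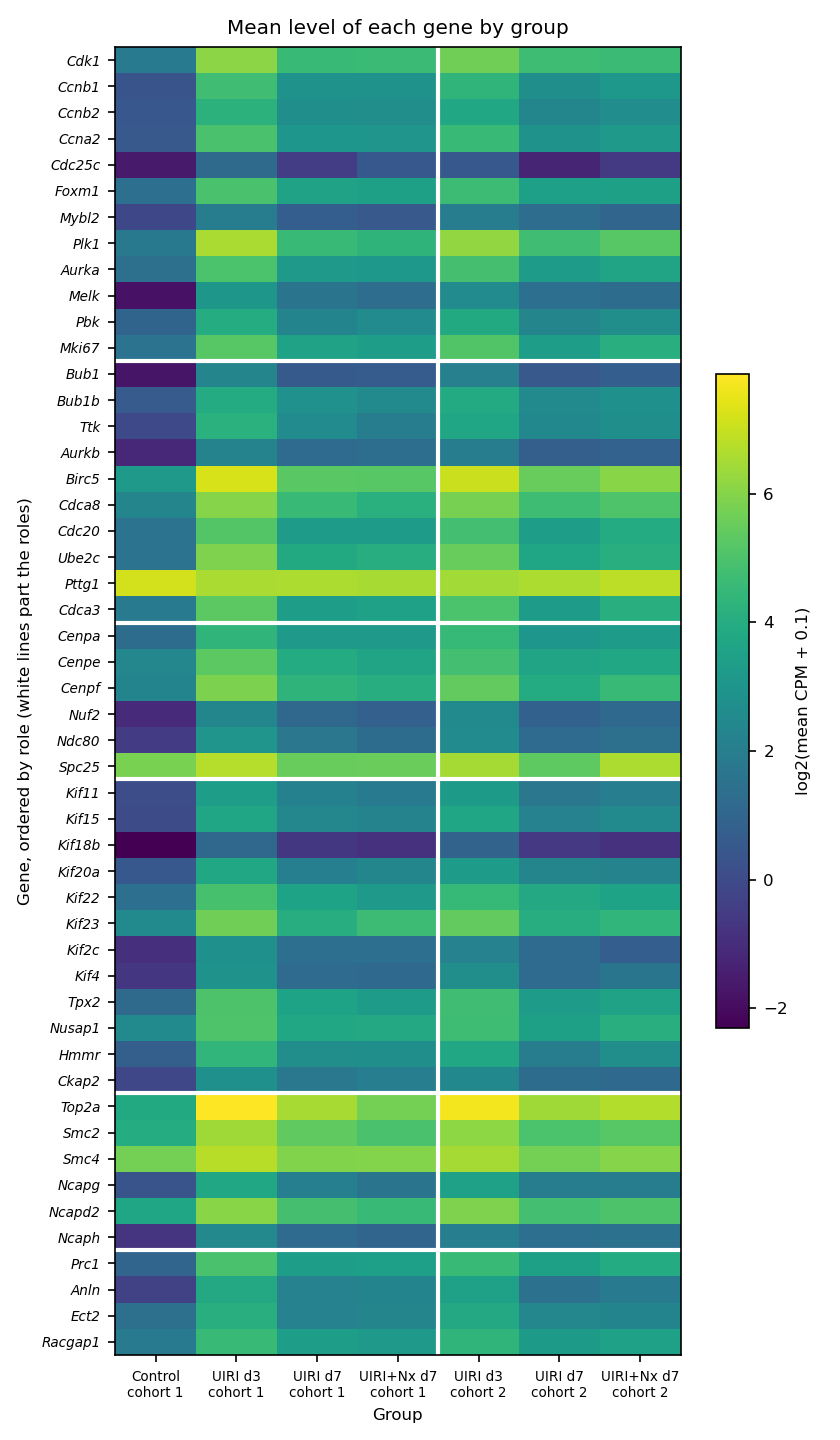
Mean level of each of the 50 genes in each group, as log2 of the mean CPM plus 0.1 (colour), with genes in rows ordered by role and the 7 groups in columns. Nearly every row is brightest in the UIRI d3 columns and darkest in Control; Pttg1 is the row that is brightest in Control.

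Among the 12 genes of mitotic entry, all 12 rose on day 3, and 11 were above Control in each day 7 group. Cdk1, the kinase at the centre of mitotic entry (ENSMUSG00000019942, chr10:69335146-69352938 on GRCm38), ran from 2.23 to 6.14 CPM in Control (median 3.08), 18.4 to 121 in UIRI d3 (60.6), 3.1 to 32.2 in UIRI d7 (27.9) and 8.98 to 43.3 in UIRI+Nx d7 (24.2). Its cohort 2 levels ran from 33 to 64 CPM in UIRI d3 (median 52.1), 16.1 to 46.8 in UIRI d7 (23.3), and 41, 10.7, 29.7 and 15.7 in the 4 UIRI+Nx d7 libraries. Its levels were uneven within groups: 1 UIRI d7 library lay in the Control range, and day 7 libraries overlapped those of UIRI d3 in both cohorts. Its fall to UIRI d7 was not called in the first cohort (log2 fold change -1.51, SE 0.43, adjusted p = 0.059).

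The cyclins were also lowest in Control and highest in UIRI d3. Ccnb1, cyclin B1, ran from 0.432 to 2.26 CPM in Control (median 1.05), 17.7 to 40.2 in UIRI d3 (25.2), 4.02 to 11.6 in UIRI d7 (6.61) and 4.76 to 11.5 in UIRI+Nx d7 (6.18). Levels in cohort 2 ran from 16.1 to 25.5 CPM in UIRI d3 (median 20.7), 3.93 to 8.44 in UIRI d7 (6.9), and 10.2, 8.42, 8.94 and 7.11 in the 4 UIRI+Nx d7 libraries. All day 7 libraries lay below those of UIRI d3 in both cohorts and above those of Control in the first. Ccnb2, cyclin B2, ran from 0.346 to 2.72 CPM in Control (median 1.05), 13.5 to 26.1 in UIRI d3 (17.7), 2.24 to 10.3 in UIRI d7 (7.23) and 3.24 to 10.5 in UIRI+Nx d7 (6.45). The second cohort gave 11.5 to 19.96 CPM in UIRI d3 (median 12.5), 2.06 to 8.83 in UIRI d7 (4.68), and 6.43, 5.91, 8.06 and 4.87 in the 4 UIRI+Nx d7 libraries. Within the first cohort, 1 UIRI d7 library lay in the Control range and the UIRI+Nx d7 libraries lay above it. Ccna2, cyclin A2, ran from 0.83 to 2.02 CPM in Control (median 1.34), 21 to 41.9 in UIRI d3 (27.9), 4.25 to 12.8 in UIRI d7 (8.08) and 3.91 to 11.7 in UIRI+Nx d7 (8.11). Across cohort 2 it ran from 19.1 to 29.4 CPM in UIRI d3 (median 22.3), 5.05 to 13.5 in UIRI d7 (6.46), and 15.2, 7.9, 7.47 and 4.24 in the 4 UIRI+Nx d7 libraries. All day 7 libraries lay below those of UIRI d3, and in the first cohort above those of Control. Ccna2 overlaps Exosc9 on the opposite strand. The strand setting of the counting is not given, so the count of Ccna2 may gain or lose reads there.

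The transcription factors that switch on these genes were themselves among them. Foxm1, which activates late cell cycle promoters, ran from 1.56 to 3.38 CPM in Control (median 2.69), 23.2 to 38.7 in UIRI d3 (30.4), 9.41 to 14.2 in UIRI d7 (11.2) and 8.17 to 13.4 in UIRI+Nx d7 (11.5). Cohort 2 libraries ran from 22.8 to 27.7 CPM in UIRI d3 (median 24.8), 8.37 to 14.6 in UIRI d7 (10.3), and 9.24, 11.4, 10.1 and 12.7 in the 4 UIRI+Nx d7 libraries. Its day 7 libraries lay below UIRI d3 in both cohorts and above Control in the first. Foxm1 overlaps 2 annotated genes, Tex52 and Gm44596, on its own strand, so its count may gain or lose reads in the shared stretch. Mybl2, the B-MYB subunit of the same machinery, was low and ran from 0.332 to 1.21 CPM in Control (median 0.833), 2.36 to 5.09 in UIRI d3 (3.8), 0.927 to 1.84 in UIRI d7 (1.78) and 0.619 to 2 in UIRI+Nx d7 (1.35). Its cohort 2 levels ran from 2.52 to 5.64 CPM in UIRI d3 (median 3.61), 1.58 to 3.44 in UIRI d7 (2.49), and 0.934, 2.04, 2.96 and 1.75 in the 4 UIRI+Nx d7 libraries. It rose on day 3 (log2 fold change 2.19, SE 0.32, adjusted p = 5.35e-06), and its day 7 libraries overlapped Control in both day 7 groups.

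Plk1, the Polo-like kinase, had some of the largest changes. It ran from 1.25 to 5.33 CPM in Control (median 3.66), 59.3 to 133 in UIRI d3 (96.7), 17 to 32.2 in UIRI d7 (21.7) and 11.9 to 33.8 in UIRI+Nx d7 (17.8). Levels in cohort 2 ran from 63.8 to 97.4 CPM in UIRI d3 (median 70.4), 18.8 to 30.1 in UIRI d7 (27.3), and 39.6, 30.9, 46.1 and 30.7 in the 4 UIRI+Nx d7 libraries. There all 4 UIRI+Nx d7 libraries lay above the UIRI d7 libraries, though the difference was not called (log2 fold change 0.48, SE 0.16, adjusted p = 0.0936). Mki67, the Ki-67 protein that coats mitotic chromosomes and is the usual stain for cycling cells (chr7:135689784-135716361 on GRCm38), ran from 2.26 to 3.57 CPM in Control (median 2.94), 15.8 to 58.7 in UIRI d3 (32.3), 3.32 to 21.2 in UIRI d7 (11.8) and 6.3 to 14.9 in UIRI+Nx d7 (10.3). The second cohort gave 27.6 to 43.1 CPM in UIRI d3 (median 31.8), 7.86 to 11.9 in UIRI d7 (10.1), and 16, 23.5, 14.6 and 13.6 in the 4 UIRI+Nx d7 libraries. One UIRI d7 library of the first cohort lay within the Control range, and in the second cohort UIRI+Nx d7 lay wholly above UIRI d7.

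The remaining entry genes were lowest in Control and highest in UIRI d3, given here as mean ± SD with n = 6 in the first cohort. Aurka, the Aurora A kinase of the spindle poles, was 2.6 ± 1.67 CPM in Control, 31.9 ± 6.85 in UIRI d3, 9.02 ± 4.65 in UIRI d7 and 8.68 ± 2.04 in UIRI+Nx d7. Melk was 0.183 ± 0.213 CPM in Control, 8.31 ± 3.12 in UIRI d3, 2.93 ± 1.85 in UIRI d7 and 2.38 ± 1.36 in UIRI+Nx d7. Pbk, a mitotic kinase, was 1.83 ± 1.2 CPM in Control, 16 ± 4.26 in UIRI d3, 4.77 ± 4.18 in UIRI d7 and 5.93 ± 2.99 in UIRI+Nx d7. Each was called above Control in all 3 injured groups. Cdc25c, the phosphatase that activates Cdk1, averaged at most 2.18 ± 1.05 CPM in a group of the first cohort. It was the entry gene with the widest gap between day 7 groups, 0.628 ± 0.424 CPM in UIRI d7 and 1.31 ± 0.564 in UIRI+Nx d7, which was not called (log2 fold change 1.0, SE 0.55, adjusted p = 0.312).

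The spindle checkpoint, chromosomal passenger and anaphase-promoting complex genes numbered 10, of which 9 rose on day 3 and stayed above Control in both day 7 groups; Pttg1 was the exception. Birc5, survivin, a subunit of the passenger complex, was the most abundant of the 9 and ran from 4.61 to 14.4 CPM in Control (median 9.14), 104 to 198 in UIRI d3 (148), 29.3 to 51.4 in UIRI d7 (37.6) and 18.6 to 59.2 in UIRI+Nx d7 (33.8). Across cohort 2 it ran from 109 to 154 CPM in UIRI d3 (median 134), 37.1 to 52.6 in UIRI d7 (45.2), and 63.5, 68.1, 76.7 and 59.4 in the 4 UIRI+Nx d7 libraries. Its day 7 libraries lay below UIRI d3 in both cohorts and above Control in cohort 1, and in the second cohort UIRI+Nx d7 lay above UIRI d7. Aurkb, the kinase of that complex, ran from 0.0966 to 0.68 CPM in Control (median 0.339), 1.68 to 10.1 in UIRI d3 (4.04), 0.689 to 5.4 in UIRI d7 (1.47) and 0.748 to 3.69 in UIRI+Nx d7 (2.75). Cohort 2 libraries ran from 1.79 to 6.89 CPM in UIRI d3 (median 3.33), 0.938 to 2.73 in UIRI d7 (1.45), and 3.42, 0.679, 1.7 and 1.12 in the 4 UIRI+Nx d7 libraries. At these low levels its day 7 libraries overlapped UIRI d3 in both cohorts, and neither fall was called in either cohort.

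Cdc20, the activator of the anaphase-promoting complex, ran from 1.79 to 4.36 CPM in Control (median 2.47), 28.9 to 42.8 in UIRI d3 (35.4), 7.51 to 18.2 in UIRI d7 (8.23) and 7.32 to 14.9 in UIRI+Nx d7 (9.18). Its cohort 2 levels ran from 21.3 to 38.1 CPM in UIRI d3 (median 28.3), 8.8 to 11.5 in UIRI d7 (10.5), and 14.1, 14.9, 18.6 and 13.7 in the 4 UIRI+Nx d7 libraries. Cdc20 overlaps Elovl1 on the opposite strand. Ube2c, the ubiquitin-conjugating enzyme of the complex, ran from 1.7 to 4.59 CPM in Control (median 2.78), 44.8 to 72.8 in UIRI d3 (61.4), 7.88 to 20.8 in UIRI d7 (14.6) and 7.59 to 27.5 in UIRI+Nx d7 (15.3). Levels in cohort 2 ran from 39.9 to 50.3 CPM in UIRI d3 (median 45.3), 10.5 to 13.7 in UIRI d7 (13.4), and 21.1, 15.1, 18.8 and 13.8 in the 4 UIRI+Nx d7 libraries. For Cdc20 and Ube2c alike, the first cohort's day 7 groups overlapped, and the second cohort's UIRI+Nx d7 libraries all lay above UIRI d7, a difference that was called for Cdc20 and not for Ube2c (log2 fold change 0.41, SE 0.14, adjusted p = 0.0913).

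Of the other members of this set, Cdca8, borealin of the passenger complex, was 4.93 ± 1.3 CPM in Control, 63.7 ± 14.3 in UIRI d3, 24 ± 4.89 in UIRI d7 and 17.7 ± 4.81 in UIRI+Nx d7. Cdca3, which triggers destruction of the Wee1 kinase at mitotic entry, was 3.65 ± 1.13 CPM in Control, 39.7 ± 4.6 in UIRI d3, 10.2 ± 2.27 in UIRI d7 and 11.3 ± 4.85 in UIRI+Nx d7. Bub1b, the checkpoint protein BubR1, was 1.41 ± 0.739 CPM in Control, 15.3 ± 3.52 in UIRI d3, 7.02 ± 2.86 in UIRI d7 and 5.7 ± 1.88 in UIRI+Nx d7. The checkpoint kinases Bub1 and Ttk were likewise lowest in Control and highest in UIRI d3. Bub1 was 0.203 ± 0.24 CPM in Control, 4.95 ± 1.72 in UIRI d3, 1.41 ± 1.02 in UIRI d7 and 1.46 ± 0.578 in UIRI+Nx d7. Ttk was 0.852 ± 0.481 CPM in Control, 18.2 ± 7.18 in UIRI d3, 5.94 ± 2.24 in UIRI d7 and 3.84 ± 1.19 in UIRI+Nx d7.

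All 6 centromere and kinetochore genes rose on day 3, and 5 were above Control on day 7. Cenpf, a large protein of the outer kinetochore, ran from 2.95 to 9.77 CPM in Control (median 3.76), 40.1 to 78 in UIRI d3 (51.9), 7.19 to 30.5 in UIRI d7 (19.7) and 6.35 to 25.2 in UIRI+Nx d7 (16.1). The second cohort gave 37.2 to 47.5 CPM in UIRI d3 (median 42), 9.92 to 19.9 in UIRI d7 (16.9), and 24.2, 25.5, 27.8 and 17.8 in the 4 UIRI+Nx d7 libraries. One Control library at 9.77 CPM lay above the lowest library of each day 7 group. Cenpa, the centromeric histone, was 2.35 ± 0.861 CPM in Control, 20.2 ± 9.75 in UIRI d3, 8.93 ± 4.7 in UIRI d7 and 9.16 ± 4.24 in UIRI+Nx d7. Cenpe, the kinetochore motor, was 5.12 ± 1.03 CPM in Control, 39.3 ± 12.9 in UIRI d3, 15.5 ± 7.44 in UIRI d7 and 12.2 ± 3.14 in UIRI+Nx d7. The subunits Nuf2 and Ndc80 of the Ndc80 complex were lower, at 0.387 ± 0.166 CPM in Control, 5.01 ± 1.77 in UIRI d3, 2.01 ± 0.99 in UIRI d7 and 1.67 ± 0.72 in UIRI+Nx d7 for Nuf2, and 0.605 ± 0.581 CPM in Control, 7.87 ± 3.54 in UIRI d3, 3.17 ± 1.48 in UIRI d7 and 2.35 ± 0.344 in UIRI+Nx d7 for Ndc80. Spc25, the remaining subunit of that complex on the list, is described further on.

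All 12 kinesin and spindle genes rose on day 3, all 12 were above Control in UIRI d7, and 11 were in UIRI+Nx d7. Kif11, the motor that pushes spindle poles apart, ran from 0.173 to 1.87 CPM in Control (median 0.927), 8.21 to 14 in UIRI d3 (9.92), 2.32 to 6.77 in UIRI d7 (4.14) and 1.25 to 7.06 in UIRI+Nx d7 (2.78). Across cohort 2 it ran from 6.71 to 11.9 CPM in UIRI d3 (median 9), 2.06 to 4.3 in UIRI d7 (3.33), and 5.71, 4.75, 3.18 and 2.62 in the 4 UIRI+Nx d7 libraries. The lowest UIRI+Nx d7 library lay within the Control range. Tpx2, which activates Aurora A on the spindle, ran from 1.45 to 3.37 CPM in Control (median 1.96), 26.4 to 36.3 in UIRI d3 (32.7), 9.41 to 16 in UIRI d7 (11.5) and 5.95 to 13.6 in UIRI+Nx d7 (10.2). Cohort 2 libraries ran from 21.8 to 31.2 CPM in UIRI d3 (median 26.2), 7.08 to 12 in UIRI d7 (9.53), and 9.96, 13.3, 12.3 and 11.1 in the 4 UIRI+Nx d7 libraries. Its day 7 libraries lay below UIRI d3 in both cohorts, and in cohort 1 above Control.

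Kif23, the motor of the central spindle, had the widest gap of this role between the day 7 groups of the first cohort, and it was 5.57 ± 1.03 CPM in Control, 50.5 ± 6.12 in UIRI d3, 16 ± 5.12 in UIRI d7 and 25.1 ± 7.03 in UIRI+Nx d7. The difference was not called by edgeR (log2 fold change 0.64, SE 0.21, adjusted p = 0.0608). Nusap1, a microtubule-binding protein, was 5.73 ± 1.77 CPM in Control, 33.1 ± 7.17 in UIRI d3, 13.5 ± 3.25 in UIRI d7 and 13.9 ± 4.16 in UIRI+Nx d7. Hmmr, a spindle assembly factor, was 1.61 ± 0.906 CPM in Control, 20.6 ± 5.3 in UIRI d3, 6.42 ± 2.5 in UIRI d7 and 6.63 ± 4.09 in UIRI+Nx d7. The kinesin Kif15 was 0.899 ± 0.353 CPM in Control, 12.9 ± 1.96 in UIRI d3, 5.18 ± 2.02 in UIRI d7 and 4.62 ± 1.83 in UIRI+Nx d7. These 3 had nearly equal means in the day 7 groups of the first cohort. Kif20a, a kinesin of cytokinesis, was 1.3 ± 0.5 CPM in Control, 13.7 ± 6.28 in UIRI d3, 4.12 ± 1.94 in UIRI d7 and 5.04 ± 2.08 in UIRI+Nx d7. Kif22, which moves chromosome arms, ran from 1.78 to 3.22 CPM in Control (median 2.57), 24.7 to 39.5 in UIRI d3 (28.1), 4.79 to 19 in UIRI d7 (11.8) and 4.8 to 10.5 in UIRI+Nx d7 (9.92). Kif4 was 0.519 ± 0.435 CPM in Control, 7.28 ± 1.63 in UIRI d3, 2.31 ± 0.945 in UIRI d7 and 2.17 ± 1.07 in UIRI+Nx d7. The rarest of the set were Kif2c, Ckap2 and Kif18b, whose UIRI d3 means were 6.77 ± 1.71, 6.81 ± 2.84 and 2 ± 1.01 CPM. Their falls from day 3 were not called in either day 7 group of the first cohort. In the second cohort all 12 genes were lower in UIRI d7 than in UIRI d3 and 11 were in UIRI+Nx d7.

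The 6 genes of chromosome condensation all rose on day 3, and 5 were above Control on day 7. Top2a, the topoisomerase that untangles chromosomes (chr11:98992943-99024189 on GRCm38), was the most abundant of the 50 in UIRI d3 and ran from 12.2 to 16.3 CPM in Control (median 14.5), 149.9 to 313 in UIRI d3 (228), 51.6 to 139.9 in UIRI d7 (91.2) and 31.1 to 74.4 in UIRI+Nx d7 (53.2). Its cohort 2 levels ran from 189 to 238 CPM in UIRI d3 (median 201), 69 to 102 in UIRI d7 (85.5), and 109, 105, 107 and 89.5 in the 4 UIRI+Nx d7 libraries. Its day 7 libraries lay below UIRI d3 in both cohorts and above Control in the first, and the day 7 groups overlapped each other. Smc2, a core condensin subunit, was 15.9 ± 3.48 CPM in Control, 84.1 ± 17.8 in UIRI d3, 41 ± 9.48 in UIRI d7 and 30.7 ± 9.78 in UIRI+Nx d7. Ncapd2 was 12.5 ± 4.1 CPM in Control, 66.6 ± 13.3 in UIRI d3, 29.3 ± 7.72 in UIRI d7 and 23.4 ± 3.33 in UIRI+Nx d7. Ncapg was 1.16 ± 0.356 CPM in Control, 13.9 ± 4.11 in UIRI d3, 4.18 ± 2.28 in UIRI d7 and 2.98 ± 0.969 in UIRI+Nx d7. For Smc2, Ncapd2 and Ncapg the UIRI+Nx d7 mean was the lower of the day 7 means in the first cohort, by amounts that were not called. The same held for Ncaph, at 2.31 CPM in UIRI d7 and 1.91 in UIRI+Nx d7. For Smc4 these means were nearly equal, at 61.8 and 62.8 CPM. Ncaph, at 5.43 ± 2.65 CPM in UIRI d3, was the rarest.

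The 4 cytokinesis genes all rose on day 3, and 3 were above Control on day 7. Prc1, which bundles the central spindle, ran from 0.917 to 2.89 CPM in Control (median 1.87), 24.4 to 36.8 in UIRI d3 (32.2), 3.48 to 15.4 in UIRI d7 (10.6) and 5.74 to 16.5 in UIRI+Nx d7 (10.1). Levels in cohort 2 ran from 19 to 29.9 CPM in UIRI d3 (median 23.2), 8.05 to 12.7 in UIRI d7 (11.1), and 16.8, 16.4, 17 and 10.4 in the 4 UIRI+Nx d7 libraries. In cohort 1 its day 7 libraries stood between the Control and UIRI d3 ranges, and in cohort 2 below UIRI d3. Anln, the ring protein anillin, ran from 0.338 to 1.38 CPM in Control (median 0.502), 9.01 to 21.3 in UIRI d3 (13.7), 1.26 to 9.47 in UIRI d7 (3.36) and 1.66 to 7.39 in UIRI+Nx d7 (5.05). The second cohort gave 6.31 to 16.6 CPM in UIRI d3 (median 11.9), 0.562 to 3.59 in UIRI d7 (3.14), and 4.77, 3.59, 4.51 and 1.75 in the 4 UIRI+Nx d7 libraries. The lowest UIRI d7 library of the first cohort lay in the Control range and the highest in that of UIRI d3. Racgap1, the partner of Kif23 in the central spindle, was 3.62 ± 1.59 CPM in Control, 23.1 ± 4.46 in UIRI d3, 10.4 ± 3.5 in UIRI d7 and 8.84 ± 2.88 in UIRI+Nx d7. Ect2, the factor that switches on the ring's RhoA, was 2.6 ± 1.72 CPM in Control, 16.9 ± 6.23 in UIRI d3, 4.51 ± 3.11 in UIRI d7 and 4.83 ± 2.64 in UIRI+Nx d7.

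Pttg1, Spc25 and Smc4 had Control levels far above those of the other genes. Pttg1, securin, which guards sister chromatid cohesion until anaphase (ENSMUSG00000020415, chr11:43420250-43426251 on GRCm38), ran from 86.8 to 181 CPM in Control (median 154), 62.4 to 119 in UIRI d3 (101), 68.6 to 129 in UIRI d7 (96.7) and 81.8 to 116 in UIRI+Nx d7 (90.3). Across cohort 2 it ran from 81.6 to 93.2 CPM in UIRI d3 (median 88.3), 79.9 to 119 in UIRI d7 (90.9), and 90.2, 114, 155 and 108 in the 4 UIRI+Nx d7 libraries. All groups overlapped. Pttg1 was called lower than Control in UIRI d3 (log2 fold change -0.58, SE 0.18, adjusted p = 0.0158), UIRI d7 (log2 fold change -0.56, SE 0.18, adjusted p = 0.0171) and UIRI+Nx d7 (log2 fold change -0.62, SE 0.18, adjusted p = 0.0105). These calls were lost when counts were scaled by total counts only, which gave -0.32, -0.20 and -0.34 with adjusted p of 0.127, 0.311 and 0.104, and that scaling moved the median of all genes by 0.26, 0.39 and 0.29.

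Spc25, a subunit of the Ndc80 kinetochore complex (chr2:69193895-69206194 on GRCm38), ran from 34.5 to 96.3 CPM in Control (median 51.4), 56.8 to 143 in UIRI d3 (113), 26.2 to 69.2 in UIRI d7 (43.2) and 31.6 to 67.7 in UIRI+Nx d7 (46.6). Cohort 2 libraries ran from 66.3 to 113 CPM in UIRI d3 (median 90.8), 30.9 to 50.4 in UIRI d7 (40.6), and 86, 117, 92.1 and 97.7 in the 4 UIRI+Nx d7 libraries. In the first cohort it rose on day 3 (log2 fold change 0.94, SE 0.26, adjusted p = 0.00535) and had day 7 libraries within or below the Control range in both groups. In cohort 2 UIRI d7 lay below all UIRI d3 libraries, whereas the 4 UIRI+Nx d7 libraries lay within or just above the UIRI d3 range. Smc4, the other core condensin subunit, ran from 24.3 to 95.1 CPM in Control (median 46.5), 56.9 to 168 in UIRI d3 (98), 42.9 to 94.4 in UIRI d7 (58.6) and 46.5 to 83.2 in UIRI+Nx d7 (64.3). Its cohort 2 levels ran from 82.7 to 101 CPM in UIRI d3 (median 89), 41.4 to 66.5 in UIRI d7 (53), and 82.7, 64.1, 56.5 and 52.8 in the 4 UIRI+Nx d7 libraries. It rose on day 3 (log2 fold change 1.02, SE 0.29, adjusted p = 0.00739), and all groups of the first cohort overlapped. Pttg1, Spc25 and Smc4 together made up most of the summed Control level: without them the sum averaged 137 ± 18.7 CPM in Control, 1602 ± 163 in UIRI d3, 555 ± 105 in UIRI d7 and 482 ± 147 in UIRI+Nx d7.

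How much of the day 3 rise was left on day 7 was computed for each gene from group means of the first cohort, as the excess over Control on day 7 in percent of the excess on day 3. Over the 49 genes with a rise the median was 28.5% in UIRI d7, with quartiles of 22.8% and 33.9%, and 24.4% in UIRI+Nx d7, with quartiles of 20.7% and 29.96%. For the summed level it was 24.3% with an SD over libraries of 7.34 in UIRI d7 and 19.4% with an SD of 10.5 in UIRI+Nx d7 (n = 6 each), a difference within the spread of the libraries. The quartiles over genes overlapped over most of their length between the day 7 groups. They describe the spread between genes and not between libraries. Spc25 kept none of the rise (-20.8% and -18%), and Ect2 and Smc4 kept 13.4% and 15.2% in UIRI d7. Aurkb and Ckap2 kept the largest share in UIRI d7, 45% and 42.2%, and both are low in all groups.

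By role, the entry genes kept a median of 24.6% in UIRI d7 and 25.7% in UIRI+Nx d7, the checkpoint and anaphase-promoting complex genes 25.3% and 21.7%, and the kinesins and spindle genes 30.4% and 28.6%. The centromere genes kept 32.7% and 22.8%, the cytokinesis genes 28.5% and 28.4%, and the condensation genes 33.5% and 19.1%. The condensation genes were the role with the widest gap, led by Top2a, which kept 36% in UIRI d7 and 17.9% in UIRI+Nx d7. Kif23 went the other way, from 23.2% to 43.5%. In cohort 2, without Control, the summed level in UIRI d7 was 44.6% of that in UIRI d3, with an SD of 2.93 (n = 6), and that in UIRI+Nx d7 was 58.6%, with an SD of 6.65 (n = 4). Gene by gene the median of these shares was 37.4% in UIRI d7 and 47.2% in UIRI+Nx d7. In cohort 1 the same share of the UIRI d3 level had medians of 35.5% and 33.6%, a measure other than the share of the rise above. Top2a was at 41.1% of its UIRI d3 level in UIRI d7 of cohort 2 and 49.4% in UIRI+Nx d7. Smc2, Smc4, Ncapd2 and Ncaph were also the higher in UIRI+Nx d7 there, and Ncapg was nearly equal (33.9% and 33.5%).

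**Figure D4:**
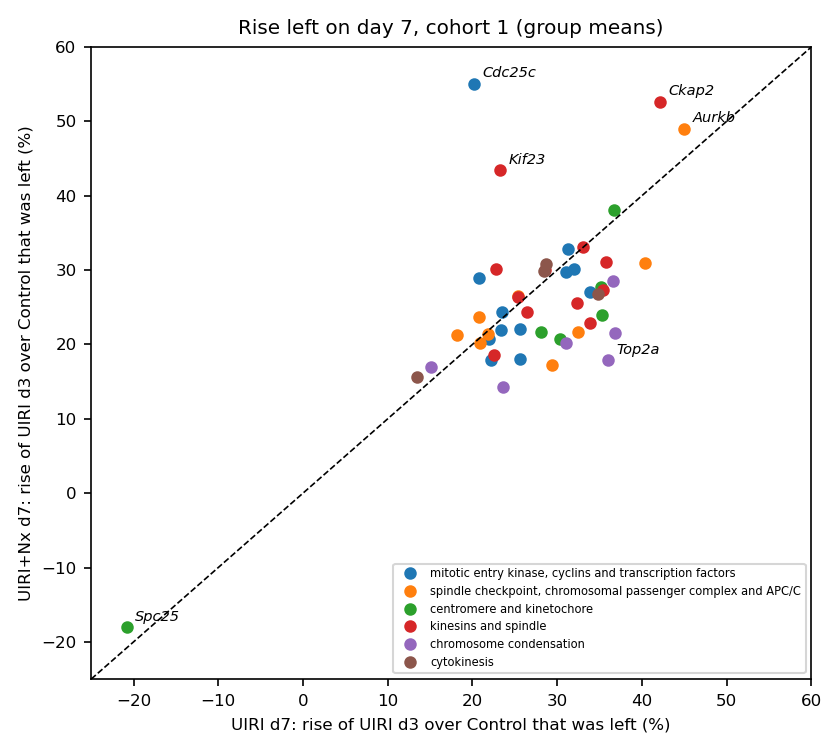
Share of the day 3 rise over Control that was left in UIRI d7 (horizontal axis, percent) and in UIRI+Nx d7 (vertical axis, percent), with 1 point per gene for 49 genes of cohort 1, coloured by role, and a dashed line of equality. The middle of the points lies between the quartiles of 22.8% and 33.9% on the horizontal axis and 20.7% and 29.96% on the vertical; Top2a lies below the dashed line, Kif23 and Cdc25c above it, and Spc25 under 0 on both axes.

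The effect of removing the other kidney was read from UIRI+Nx d7 against UIRI d7. In the first cohort 1 of the 50 genes was lower and 0 were higher, where 3.46% of all genes were called lower and 3.17% higher, and the median log2 fold change was -0.063 (-0.012 over all genes). The gene was Top2a (log2 fold change -0.80, SE 0.24, adjusted p = 0.0392), with a mean of 92.8 ± 28.5 CPM in UIRI d7 and 53.4 ± 19.3 in UIRI+Nx d7. This call was lost in 9 of the 12 fits that left out 1 library, with adjusted p from 0.0164 to 0.113, and in the fit of these 2 groups alone, at 0.0944. At an unadjusted p under 0.05, 1 gene was higher, and DESeq2 called that gene, Kif23, higher (log2 fold change 0.64, adjusted p = 0.0336). The group mean in UIRI+Nx d7 was below that in UIRI d7 for 31 of the 50 genes. For 34 genes the 95% interval of the log2 fold change lay within 1 of 0, that is, within a 2-fold change either way; for the others a larger difference was not shown or excluded. Within run 1a, with 3 libraries on each side, the median was -0.072 and no gene of the whole table was called. With the run as a block in edgeR, the median was -0.19, with 1 gene of the 50 lower and 0 higher. In that fit 9 genes not called in the main fit changed sign, and 1359 genes of the whole table were called.

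In the second cohort 6 of the 50 genes were higher in UIRI+Nx d7 than in UIRI d7 and 0 were lower, where 2.58% of all genes were called higher and 2.66% lower, and the median log2 fold change was 0.28 (0.0046 over all genes). They were Spc25 (log2 fold change 1.28, SE 0.16, adjusted p = 1.00e-04), Cdca3 (log2 fold change 0.78, SE 0.16, adjusted p = 0.00869), Mki67 (log2 fold change 0.74, SE 0.18, adjusted p = 0.0206), Birc5 (log2 fold change 0.58, SE 0.14, adjusted p = 0.016), Nusap1 (log2 fold change 0.63, SE 0.17, adjusted p = 0.0393) and Cdc20 (log2 fold change 0.57, SE 0.16, adjusted p = 0.0488). Spc25 averaged 40.5 ± 7.33 CPM in UIRI d7 (n = 6) and 98.3 ± 13.5 in UIRI+Nx d7 (n = 4). Mki67 averaged 10.03 ± 1.84 and 16.9 ± 4.5 CPM, and Birc5 44.9 ± 7.28 and 66.9 ± 7.44. No gene of the 50 was lower at an unadjusted p under 0.05 or by DESeq2, and 14 were higher at that level. The mean was lower in UIRI+Nx d7 for 10 of the 50.

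The calls of the second cohort rested on few libraries. Spc25 and Cdca3 were called in all 10 fits that left out 1 library, Mki67 and Birc5 in 9, Nusap1 in 3 and Cdc20 in 0; without the second UIRI+Nx d7 library only Spc25 and Cdca3 remained, and Mki67 and Birc5 had adjusted p of 0.15 and 0.0571. Fitted on these 2 groups alone, 3 genes were called. Within runs 2a and 2c the median was 0.27 and 0.24 and 0 genes of the 50 were called in either, with 8 and 16 genes called in the whole table.

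The nephrectomy effect was not shown to differ between cohorts for any of the 50 genes. In edgeR's fit of all groups, the difference between the effects passed for 0 genes, with 0% of 16606 genes called in either direction and 7 of the 50 at an unadjusted p under 0.05, all with the lower effect in the first cohort. The lowest adjusted p was 0.443, reached by Top2a, with an effect of -0.80 in cohort 1 and 0.26 in cohort 2, and by Spc25, with 0.049 and 1.28. The test has less reach than those within a cohort: the median distance from the estimate to the bound of its 95% interval was 0.85 on the log2 scale, beside 0.66 within cohort 1 and 0.47 within cohort 2.

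**Figure D5:**
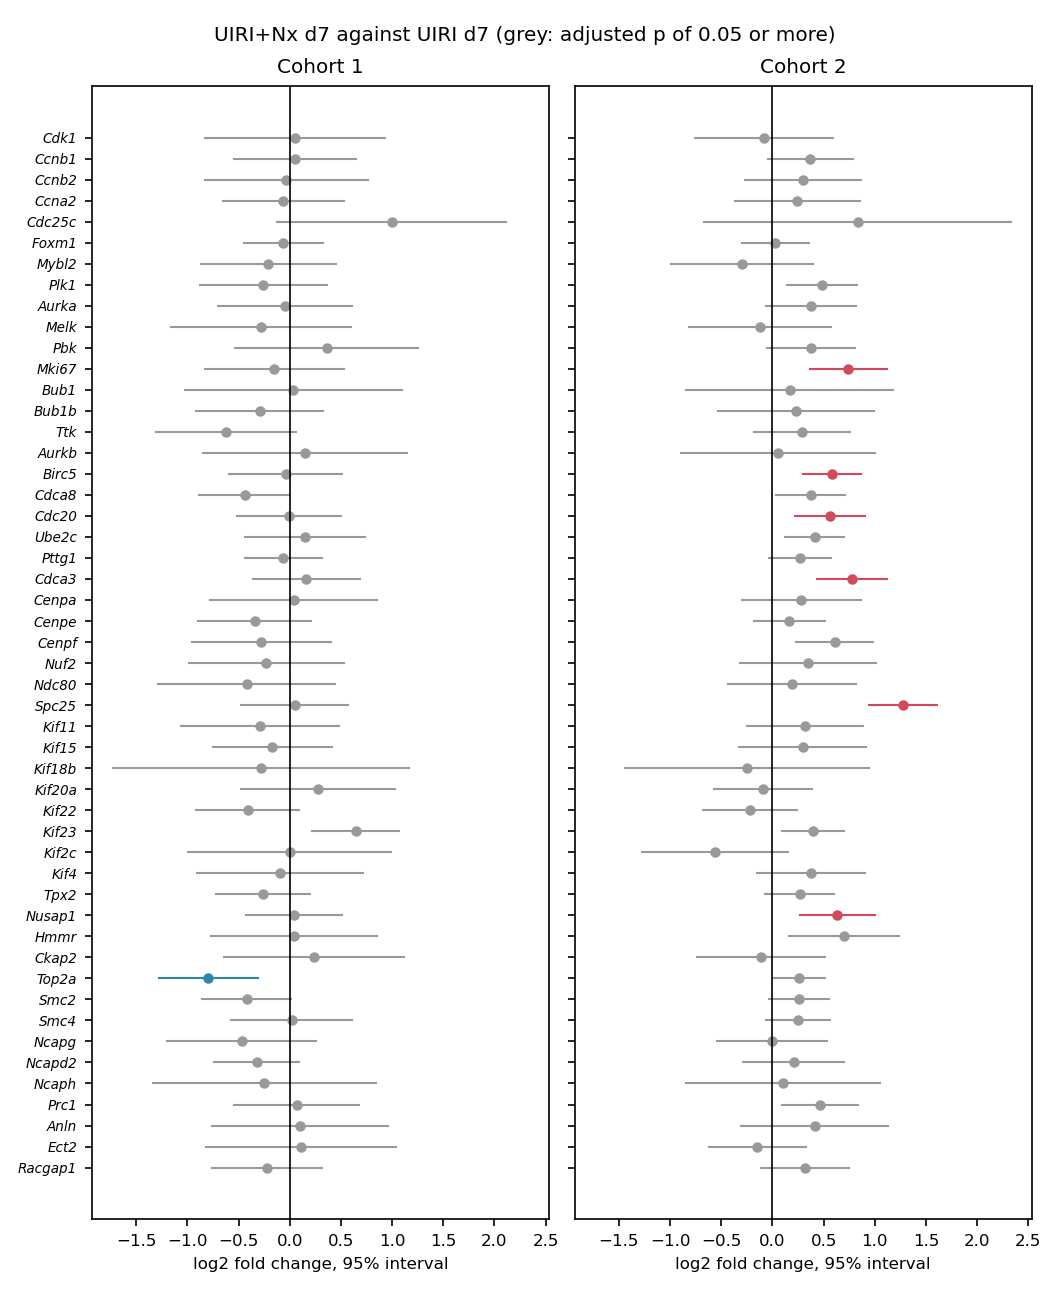
Log2 fold change of UIRI+Nx d7 against UIRI d7 with its 95% interval (horizontal axis) for each of the 50 genes, in cohort 1 (left) and cohort 2 (right); blue is called lower, red called higher, grey not called. The points of cohort 1 scatter around 0 with Top2a the only call, and those of cohort 2 sit mostly to the right of 0 with 6 called.

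Other genes of division from fixed lists were counted in the same fits. Against Control, 17.8% of all genes were called higher in UIRI d3, 21.5% in UIRI d7 and 17.3% in UIRI+Nx d7. The shares called lower were 14.9%, 18.1% and 14%. Of 76 other G2 and mitosis genes tested, 62 were higher than Control in UIRI d3, 52 higher and 2 lower in UIRI d7, and 50 higher and 3 lower in UIRI+Nx d7, with medians of 2.80, 1.55 and 1.37. For UIRI+Nx d7 against UIRI d7 their medians were -0.082 in cohort 1 and 0.24 in cohort 2. Of 58 genes of DNA replication and S phase, 50 were higher and 1 lower in UIRI d3, 35 and 2 in UIRI d7, and 31 and 2 in UIRI+Nx d7, with medians of 1.76, 0.89 and 0.83. The S phase genes thus had smaller median changes than the 50, and their UIRI+Nx d7 against UIRI d7 medians were -0.12 and 0.048 in the first and second cohorts. Mcm3, a subunit of the replicative helicase, averaged 8.4 ± 1.53 CPM in Control, 67.7 ± 11.8 in UIRI d3, 32.8 ± 6.31 in UIRI d7 and 23.7 ± 5.5 in UIRI+Nx d7. Pcna, the sliding clamp of DNA polymerase, averaged 19.1 ± 2.72, 50.3 ± 9.39, 28 ± 7.78 and 32.6 ± 9.71 CPM in the same groups.

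Genes that regulate endoreplication, in which DNA is copied without division, changed in part. Of 18 such genes 7 were higher than Control in each of the 3 injured groups of the first cohort. Over all genes, 17.8%, 21.5% and 17.3% were called higher in UIRI d3, UIRI d7 and UIRI+Nx d7. Ccne1, cyclin E1, rose on day 3 (log2 fold change 3.57, SE 0.46, adjusted p = 7.90e-07) and was above Control in both day 7 groups (2.62 and 2.09). E2f7 and E2f8, repressors that close S phase, rose by 3.75 and 3.95 on day 3 and were 2.41 and 2.55 above Control in UIRI d7 and 2.43 and 2.50 in UIRI+Nx d7, on the log2 scale. None of the 3 was called between the day 7 groups of either cohort.

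Genes that brake entry into mitosis changed less than the 50. Of 24 tested, 11 were higher and 2 lower than Control in UIRI d3, 9 and 2 in UIRI d7, and 11 and 1 in UIRI+Nx d7. Over all genes 17.8%, 21.5% and 17.3% were called higher there, and 14.9%, 18.1% and 14% lower. The median log2 fold change of the 24 genes from UIRI d3 to UIRI d7 was -0.083 in cohort 1 and -0.34 in cohort 2. Cdkn1a, the CDK inhibitor p21, averaged 9.09 ± 1.43 CPM in Control, 70.04 ± 4.25 in UIRI d3, 64.2 ± 26.1 in UIRI d7 and 86.9 ± 30.7 in UIRI+Nx d7. In the second cohort it was higher in UIRI+Nx d7 than in UIRI d7 (log2 fold change 0.76, SE 0.17, adjusted p = 0.0103), and in the first the difference was not called (log2 fold change 0.44, SE 0.23, adjusted p = 0.279). Gadd45b and Ccng1 are named because they were picked by adjusted p in UIRI+Nx d7 against UIRI d7 of cohort 1. In that contrast 3.46% of all genes were called lower and 3.17% higher. Gadd45b, a stress-induced protein of the GADD45 family, was lower in UIRI+Nx d7 than in UIRI d7 in cohort 1 (log2 fold change -1.10, SE 0.24, adjusted p = 0.00489) and cohort 2 (log2 fold change -0.90, SE 0.18, adjusted p = 0.00639). Ccng1, cyclin G1, a p53 target, was higher in cohort 1 (log2 fold change 0.82, SE 0.21, adjusted p = 0.0198) and cohort 2 (log2 fold change 0.49, SE 0.14, adjusted p = 0.0468). Wee1, the kinase that holds Cdk1 inactive, was not called in any of these contrasts, and its log2 fold change was 0.52 in UIRI d3, 0.046 in UIRI d7 and 0.093 in UIRI+Nx d7.

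Markers of other cell types moved with the same contrasts, and their part in the results above was not tested. Of 14 macrophage and monocyte markers, 13 were higher than Control in UIRI d3, and their summed level ran from 212 to 436 CPM in Control, 546 to 1244 in UIRI d3, 1844 to 4084 in UIRI d7 and 1322 to 2410 in UIRI+Nx d7. They rose from day 3 to day 7 while the 50 genes fell, with 7 of 14 called higher in UIRI d7 than in UIRI d3 in cohort 1 and 8 in cohort 2. Of 6 T and NK cell markers tested, 5 were lower in UIRI+Nx d7 than in UIRI d7 in cohort 1 and 4 in cohort 2; all 9 listed summed to 19.1 to 65.1 CPM in UIRI d7 and 3.23 to 13.9 in UIRI+Nx d7 of the first cohort, and to 26.3 to 68.3 and 3.47 to 17.5 in the second. Of 10 fibroblast and pericyte markers, 9 were higher than Control in each injured group of cohort 1, with sums of 381 to 507 CPM in Control, 1563 to 2400 in UIRI d3, 1642 to 2719 in UIRI d7 and 2279 to 3085 in UIRI+Nx d7. Of 5 neutrophil markers tested, 5 were higher than Control in UIRI d3 and UIRI d7 and 4 in UIRI+Nx d7; all 6 listed summed to 2.94 to 12.7 CPM in Control, 44.1 to 1946 in UIRI d3, 23.4 to 201 in UIRI d7 and 25.9 to 53.4 in UIRI+Nx d7. All 5 red blood cell markers were lower in both day 7 groups than in UIRI d3 of cohort 2. In cohort 1 their sums ran from 49.2 to 307 CPM in UIRI d3 (median 121) and 101 to 1441 in UIRI d7 (387). In UIRI+Nx d7 of that cohort they ran from 7.96 to 794 CPM (median 38.7). Of 10 kidney epithelium markers, 8 were lower than Control in UIRI d3, and their sum fell to between 5785 and 6945 CPM there. All 8 injured tubule markers were higher than Control in each injured group, with sums of 301 to 533 CPM in Control and 2769 to 6102 in UIRI d7. No defining marker of the lists named here was at 0 in a whole group. On a further list, of B and plasma cells, Cd79a was at 0 throughout Control, UIRI d7 and UIRI+Nx d7 of cohort 1. It was also at 0 throughout UIRI d3 and UIRI+Nx d7 of cohort 2.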

How the data were processed

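The authors deposited whole-number counts per gene from 3′ end libraries of kidney pole sections, 41 libraries of which 40 have a group. The remaining library is titled UNDETERMINED. Per the submitters' processing notes, the first cohort was processed with Trimmomatic, STAR and HTSeq 0.6.1 on GRCm38 (mm10) and the second with STAR 2.7.11b on GRCm39. For cohort 2 the counting tool, and for both cohorts the strand option used in counting, was not stated. Of 48795 gene identifiers, 48349 had a symbol. Library totals ran from 5090418 to 33362940 counts, which limits precision most for genes below a few CPM.

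Each cohort was fitted with all its groups in edgeR 4.0.16 (R 4.3.3; TMM, filterByExpr, quasi-likelihood F test, Benjamini-Hochberg over all genes, threshold 0.05), and a fit of all 7 groups gave the differences between cohorts. Alternatives were DESeq2 1.42.0, other scalings, no filter, other sets of samples, blocks and leaving out single libraries. Library runs were read from column names and are not labelled batches. The fits were tested on simulated data for UIRI+Nx d7 against UIRI d7, with changed genes drawn from those above a floor on the mean count. They recovered 53% of 2-fold changes in cohort 1 and 66% in cohort 2, and 94% and 98% of 4-fold changes. False calls made up 2.65% and 5.2% of calls. Members, lists and tests were chosen with earlier results of these data known. Named genes were the 3 called with the largest change in each direction with a mean of at least 5 CPM in a group, plus core genes of each role; Kif23, Smc4, Ect2 and the genes given by group means were described as members. No replicate pair differed by less than sampling noise.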

Additional observations from a re-analysis of the deposited data

Results flagged for a closer look

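Within groups of 4 to 6 libraries, 10 of 140 gene and group combinations had 1 library set apart from the others by Dixon's test at 95%, where chance gives about 1 in 20. In the first cohort, Cdc20 was 18.2 CPM in the UIRI d7 replicate 6, with the nearest other library at 9.41, and 14.9 CPM in the UIRI+Nx d7 replicate 2, with the nearest at 10.0. Pttg1 was 116 CPM in the UIRI+Nx d7 replicate 3, above the nearest at 93.9. Cenpf was 9.77 CPM in the Control replicate 1, above the nearest at 5.19. In the second cohort the UIRI d7 replicate 3 was set apart for Cdk1, at 46.8 CPM with the nearest at 23.5, and for Ccna2, at 13.5 CPM with the nearest at 7.66. Anln was 0.562 CPM in the UIRI d7 replicate 6, below the nearest at 2.56. Prc1 was 10.4 CPM in the UIRI+Nx d7 replicate 4, below the nearest at 16.4. The UIRI d3 replicate 2 was set apart for Plk1, at 97.4 CPM with the nearest at 74.4, and for the summed level of the 50 genes, at 1858 CPM with the nearest at 1619.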

How the results depend on the processing

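No change of a single gene reversed its direction among 6258 gene results under alternatives whose main result was past the threshold; 5838 stayed past it and 420 did not, and the cause was not tested. The 1 gene lower than Control, Pttg1, became 0 with total-count scaling and within run 1a in each of the 3 contrasts, within run 2b for UIRI+Nx d7, and when only the compared groups were fitted for UIRI d7. Within run 2b, which has fewer libraries, UIRI+Nx d7 gave 9 genes above Control and 14 below UIRI d3. The whole table had 680 and 94 genes called in those fits. Within run 1a, 0 genes were lower in UIRI d7 than in UIRI d3, and 0 genes of the whole table were called. For UIRI+Nx d7 against UIRI d7 in the first cohort, DESeq2 gave 1 higher gene, Kif23, and the lower count was 0 within run 1a and when only the compared groups were fitted. In the second cohort UIRI+Nx d7 gave 17 genes below UIRI d3 within run 2a, and against UIRI d7 it gave 3 higher genes when only the compared groups were fitted and 0 within runs 2a and 2c. The summed level in percent of UIRI d3 was 37.8% and 45.0% in UIRI d7 and UIRI+Nx d7 of the second cohort as a median over genes, and 39.3% and 49.5% without Pttg1, Spc25 and Smc4, an alternative chosen after seeing the data.

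Leaving out 1 library at a time gave 49 to 49 genes higher than Control in UIRI d3, 43 to 46 in UIRI d7 and 44 to 45 in UIRI+Nx d7, with 1 to 1 lower. Falls from UIRI d3 were called for 29 to 38 and 34 to 41 genes in the first cohort, and 41 to 46 and 30 to 44 in the second, with 0 to 1 rises. UIRI+Nx d7 against UIRI d7 gave 0 to 1 higher and 0 to 1 lower in the first cohort and 2 to 6 higher in the second, and the differences between cohorts gave 0 throughout. The rise left of the summed level was 23.0% to 26.5% in UIRI d7 and 17.1% to 21.8% in UIRI+Nx d7, and the share of the day 3 level 43.5% to 46.1% and 56.3% to 61.6%.

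In 0 comparisons did all same-numbered libraries deviate together, with correlations over 0.1 (range -0.424 to 0.447), so the numbers were not taken to pair them. With the replicate number as a block, the counts for the first cohort were 49, 45 and 44 higher than Control and 36 and 40 lower than UIRI d3, and for the second 43 and 41 lower than UIRI d3. UIRI+Nx d7 against UIRI d7 gave 1 lower in the first cohort and 4 higher in the second, where Mki67 (adjusted p = 0.0556, edgeR) and Cdc20 (adjusted p = 0.0906) were lost. Depth limits the rarest genes most, such as Kif18b, Cdc25c and Aurkb, whose group means in cohort 1 stayed under 5 CPM.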

Other observations

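The labels put 1 library in no group and title it UNDETERMINED, so it was not taken as a kidney sample. It held 12446693 counts, and its summed level of the 50 genes was 1184 CPM on the library's total (95% Wilson interval 1165 to 1203, counting error only). On the same plain scale the groups ran from 304 to 350 CPM in Control, 1682 to 2241 in UIRI d3, 604 to 1031 in UIRI d7 and 523 to 860.1 in UIRI+Nx d7 of the first cohort, and from 1474 to 1864, 659.7 to 791 and 742 to 1020.0 in UIRI d3, UIRI d7 and UIRI+Nx d7 of the second. Mki67 was 20.4 CPM there, Top2a 134, Cdk1 36.6, Birc5 91.2, Pttg1 95.8 and Spc25 83.6.

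Of the 50 genes, 28 overlap another annotated gene and 11 overlap a protein-coding gene on GRCm38. For these the count of the deposited table may gain or lose reads in the shared stretch.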
